A study of Mus musculus with 5 samples.

Results

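Cytosolic ribosomal protein genes were examined in microvascular fragments from the brains of WT and Ins2-AKITA mice. They were chosen by name: every protein-coding gene, pseudogenes left out, whose symbol is Rpl or Rps followed by a number and an optional letter, or is *Rplp0*, *Rplp1*, *Rplp2* or *Rpsa*. Kinases of the Rps6k family were not taken. The rule found 80 of the 37982 Ensembl genes listed for each mouse, 48 of the large (60S) and 32 of the small (40S) subunit. Of these, 76 encode the standard ribosomal proteins, and *Rpl3l*, *Rpl10l*, *Rpl39l* and *Rps27l* are copies that differ from the standard gene. *Fau*, which encodes a ribosomal protein fused to a ubiquitin-like part, falls outside the naming rule and is described with the other genes of translation. *Rpl41* was not analysed here.

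The study asked whether long-lasting hyperglycemia alters the brain microvasculature. RNA was sequenced from 3 WT mice and 2 Ins2-AKITA mice, 1 library per mouse. All 5 mice were males on the C57BL6 background, sacrificed between 26 and 38 weeks of age, and the WT mice were littermates of the mutants. The Ins2-AKITA mice were heterozygous: they carry 1 mutated Ins2 allele, whose misfolded insulin kills pancreatic beta cells, and no cell-type promoter or Cre is involved. Brain pieces were digested with collagenase and passed through strainers, and fragments were pulled down with magnetic beads coated with anti-PECAM1. The study describes the fragments as endothelial cells with pericytes and astrocyte end-feet. Neuron and oligodendrocyte markers were also above 0 in every mouse. Every level is therefore a mixture over cell types, and fewer cells of a type and less RNA per cell cannot be told apart.

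The cytosolic ribosome translates nuclear-encoded mRNAs and is built from ribosomal RNA and a fixed set of proteins, each present in 1 copy per ribosome apart from the stalk proteins. Ribosomal protein mRNAs are among the most abundant mRNAs of most cells, and many begin with a 5' terminal oligopyrimidine (TOP) tract, a C followed by a run of C and U, through which mTOR signaling controls their translation. Insulin is a known activator of mTOR signaling.

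The start of a ribosomal protein mRNA is shown here because the TOP tract is a feature that the naming rule did not use. RefSeq promoter windows (GRCm38.p6, 250 bases before and 50 bases from the start of the transcript) were matched by symbol for 59 of the 80 genes. The following lines give 30 bases on the coding strand, with the first base of the RefSeq transcript at position 16. A tract is a C followed by at least 4 bases that are C or T. Capitals mark only a tract that begins at position 16, and tracts elsewhere in a line are left in lower case.
Rps6, chr4:86857353-86857382, minus strand: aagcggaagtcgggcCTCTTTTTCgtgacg
Rpl35, chr2:39005117-39005146, minus strand: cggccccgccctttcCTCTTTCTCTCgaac
Rpl15, chr14:18270972-18271001, minus strand: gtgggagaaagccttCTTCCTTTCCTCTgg
Rplp2, chr7:141447636-141447665, plus strand: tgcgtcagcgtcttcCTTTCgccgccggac
Rps27, chr3:90213634-90213663, minus strand: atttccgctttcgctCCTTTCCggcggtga
Rpl39, chrX:37085208-37085237, minus strand: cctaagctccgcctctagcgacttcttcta
Rps27l, chr9:66946071-66946100, plus strand: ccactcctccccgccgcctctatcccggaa
Rpl39l, chr16:10170213-10170242, plus strand: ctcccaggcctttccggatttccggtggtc

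*Rps6*, *Rpl35*, *Rpl15*, *Rplp2* and *Rps27* begin with a tract of 9, 11, 13, 5 and 7 bases, while the standard gene *Rpl39* and the copies *Rps27l* and *Rpl39l* do not begin with one. In *Rps27l* a tract of this kind begins 1 base after the listed start, and in *Rpl39* 6 bases after it. In *Rpl39l* one lies just before the start. Over the 59 matched genes, 13 (22.0%) had such a tract at the RefSeq start, against 3.01% of all 27025 symbols with a window. All 13 are standard genes, of which 55 were matched, so that most standard genes have no tract at the listed start. Within a window from 10 bases before to 15 bases after the start, 38 of the 59 (64.4%) had one, against 34.4% of all symbols. Among the 55 matched standard genes the count was 34 (61.8%). *Rpl39*, *Rps27l* and *Rpl39l* each had a tract in this window, so it did not set the printed copies apart from standard genes. The transcript strand alone was searched, since the tract is a feature of the mRNA. A match at the exact start depends on how well the start is annotated.

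All 76 standard genes were above 0 in every mouse, so the label of the set holds in these samples. FPKM (fragments scaled to exon length and library size, so that genes can be compared) had a mean over the 5 mice of at least 100 for 70 of them, and all 76 were above the median of the 13931 protein-coding genes tested, 11.96 FPKM. Among the 100 protein-coding genes with the highest mean FPKM, 23 were ribosomal protein genes. The standard genes spanned 39.4-fold, from 48.4 FPKM for *Rpl15* to 1908 FPKM for *Rpl26*. The 6 with a mean under 100 FPKM were *Rpl10a*, *Rpl15*, *Rpl27*, *Rpl39*, *Rps3* and *Rps13*.

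**Figure D1:**
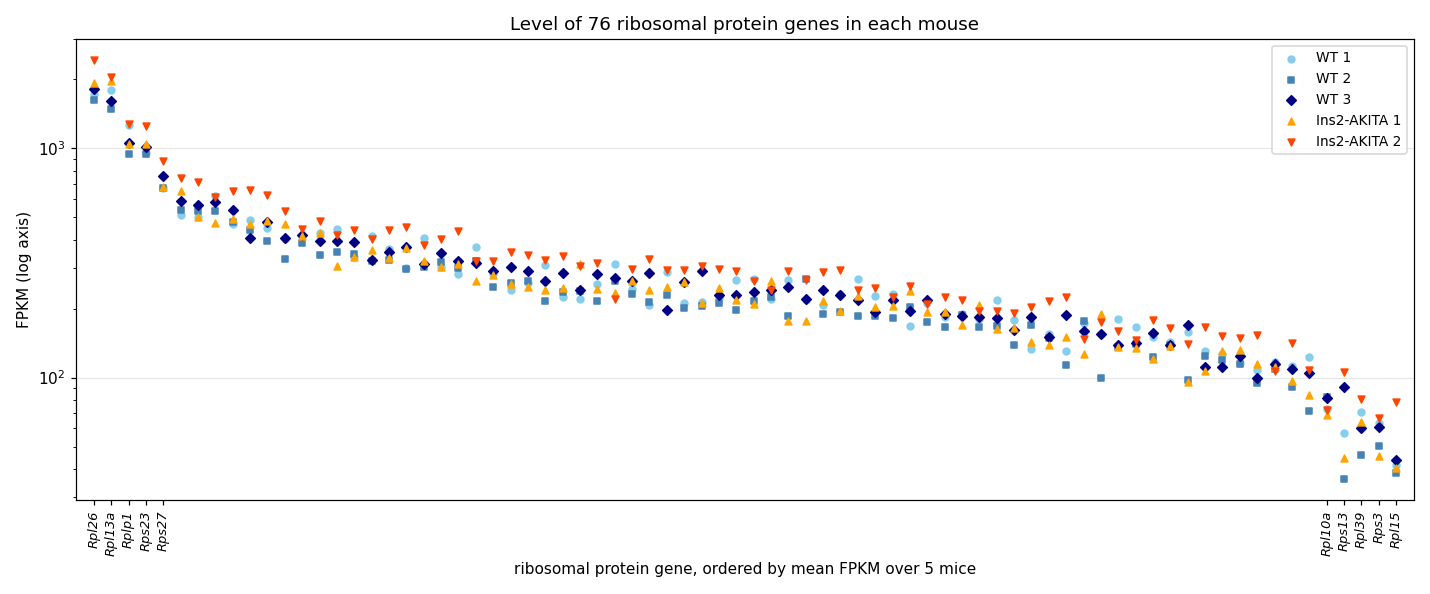
FPKM (log axis) of the 76 standard ribosomal protein genes in each of the 3 WT (blue) and 2 Ins2-AKITA mice (orange), 1 point per mouse, ordered by the mean over the 5 mice, with the 5 highest and 5 lowest genes named. The order of the genes is nearly the same in every mouse, from Rpl26 at 1908 FPKM to Rpl15 at 48.4 FPKM.

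The order of the levels was close to constant: across the 76 genes, Spearman's rho between 2 mice lay between 0.931 and 0.978 over the 10 pairs. The points share gene length and base composition, so this is a description. The span between genes also depends on the measure. The values of genes with 1 annotated transcript and at least 800 nucleotides of exon fell on whole fragments only when 220 to 228 nucleotides were taken off the exon length, which raises the FPKM of short genes such as *Rps27* (345 nucleotides of exon) or *Rpl36* (404) relative to long ones. At 300 to 500 nucleotides only 49.1% to 63.7% of the values were whole, and for genes with several transcripts 17.4% to 20.8%. Of the 77 genes tested, 59 have several transcripts, so the levels of most of the set could not be traced to whole fragments. Because this length was nearly the same in all mice, it bears on the levels and much less on the ratios between mice. In WT mice the coefficient of variation of a ribosomal protein gene had a median of 10.1%, against 15.5% for the 1619 other protein-coding genes in the same range of levels. Levels were not matched within that range, so the difference may in part reflect the level of the genes.

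The number of fragments behind the values was estimated at 1129310 to 1314309 in 4 mice and 2862952 in WT replicate 3. For the 14 ribosomal protein genes with 1 transcript and over 500 nucleotides of exon, this corresponds to between 45 and 1362 fragments per gene and mouse, and to a counting error (SD) of 2.71% to 14.9%. These errors cover counting alone. The summed FPKM over all genes ranged from 1531575 in Ins2-AKITA replicate 2 to 13025905 in WT replicate 1. Over protein-coding genes the sum was between 388605 and 421601, highest in Ins2-AKITA replicate 2. The endothelial markers *Pecam1*, *Cldn5*, *Cdh5*, *Flt1*, *Slc2a1*, *Tek* and *Kdr* were all above 0 in every mouse.

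No ribosomal protein gene passed the test between genotypes. Their mean levels were on balance slightly higher in Ins2-AKITA than in WT mice. This difference rested on 1 mouse, Ins2-AKITA replicate 2, and was not seen without it. Of the 77 genes with a mean FPKM of at least 1, the mean log2(FPKM + 1) was higher in Ins2-AKITA mice for 60 (77.9%) and lower for 17. Of all 16286 genes tested, 46.5% were higher. The median log2 fold change was 0.14, or 1.10-fold, against -0.03 over all genes tested. Without Ins2-AKITA replicate 2 the median was -0.03 (-0.007 over all genes) and 34 of the 77 genes were higher. Without Ins2-AKITA replicate 1 the median was 0.32 (-0.05 over all genes) with 71 higher. Scaling to the FPKM sum of all genes (TPM), which moved the median of all genes to 1.07, put it at 1.83 with 77 of 77 higher. *Rpl3l*, *Rpl10l* and *Rpl39l* did not reach a mean FPKM of 1 and were not tested.

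In each mouse the levels were set against the mean of the WT mice. Over the 76 standard genes, the median ratio was 1.03 in WT replicate 1, 0.927 in replicate 2 and 1.04 in replicate 3, against 0.976 in Ins2-AKITA replicate 1 and 1.25 in replicate 2. The median of Ins2-AKITA replicate 1 therefore lay between those of the WT mice, and that of Ins2-AKITA replicate 2 lay above them. Replicate 2 exceeded replicate 1 of the same genotype for 70 of the 76 genes. Among the 13854 other protein-coding genes tested, it did so for 49.8%.

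**Figure D2:**
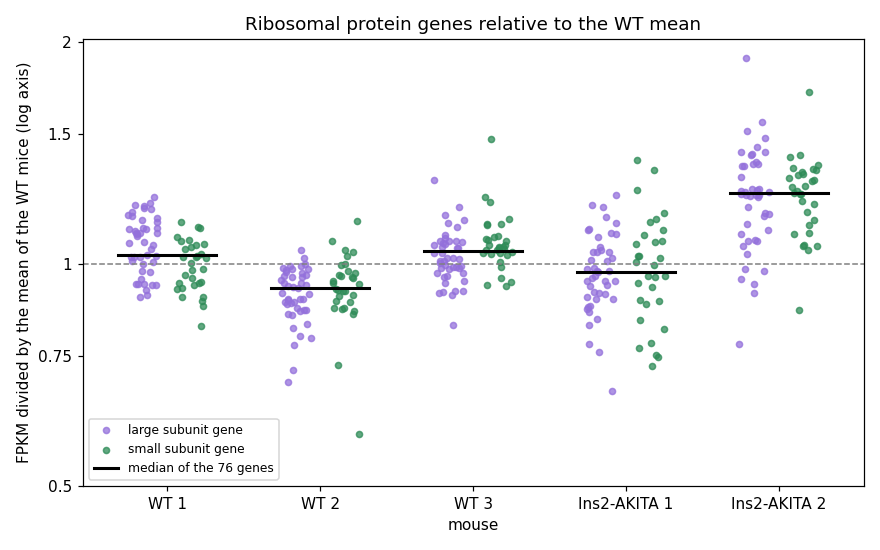
FPKM of the 76 standard ribosomal protein genes divided by the mean of the WT mice (log axis), by mouse, with large subunit genes in purple, small subunit genes in green and the median as a black line. The medians are 1.03, 0.927 and 1.04 in the WT mice, 0.976 in Ins2-AKITA replicate 1 and 1.25 in Ins2-AKITA replicate 2.

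Gene by gene, Ins2-AKITA replicate 2 was the highest of the 5 mice for 53 of the 77 genes tested (68.8%) and above all WT mice for 57 (74.0%); among other protein-coding genes these shares were 24.0% and 27.7%. Ins2-AKITA replicate 1 was above all WT mice for 17 genes (22.1%), below all of them for 22 and within their range for 38. The share above all WT mice was 21.6% among other protein-coding genes, and the shares below and within are not given here. Ins2-AKITA replicate 1 was the lowest of the 5 mice for 27.3% of the 77 genes, against 17.8% of other protein-coding genes. WT replicate 2 was the lowest mouse for 39 of the 77 genes (50.6%), against 17.2% of other protein-coding genes. Without WT replicate 2 the median log2 fold change was 0.09, with 52 of the 77 genes higher.

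Both Ins2-AKITA mice lay above all WT mice for 17 of the 77 genes (22.1%), where 9.24% of all genes tested did so. Among them were *Rpl9*, *Rpl13a*, *Rpl14*, *Rpl23*, *Rpl26*, *Rpl31*, *Rpl35* and *Rplp2* of the large and *Rps2*, *Rps9*, *Rps10*, *Rps12*, *Rps16*, *Rps23* and *Rps29* of the small subunit. Both lay below all WT mice for *Rpl10a*, *Rpl36* and *Rps28*, which is 3.9% of the 77 genes and compares with 10.3% of all genes tested. All of these genes were measured in the same 5 mice, so the counts are not counts of independent events. The 17 genes are also all those in which replicate 1 lay above the WT mice. That share, 22.1%, was close to the 21.6% of other protein-coding genes. For replicate 2 the share above all WT mice was 74.0%, against 27.7%.

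Summed over the genes of the set, the FPKM was 23840, 21339 and 23840 in the WT mice against 23303 and 28691 in the Ins2-AKITA mice. The mean sum was 23006 ± 1444 (SD, n = 3) in WT and 25997 ± 3810 (SD, n = 2) in Ins2-AKITA mice. The sum of Ins2-AKITA replicate 1 was inside the range of the WT mice and that of replicate 2 was 1.25-fold the WT mean. As a share of the FPKM of all protein-coding genes, the set took 5.93%, 5.46% and 6.13% in WT against 5.94% and 6.81% in Ins2-AKITA mice. The ratio of the large to the small subunit sum stayed between 1.58 and 1.77: it was 1.77, 1.58 and 1.58 in WT against 1.69 and 1.67 in Ins2-AKITA mice.

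**Figure D3:**
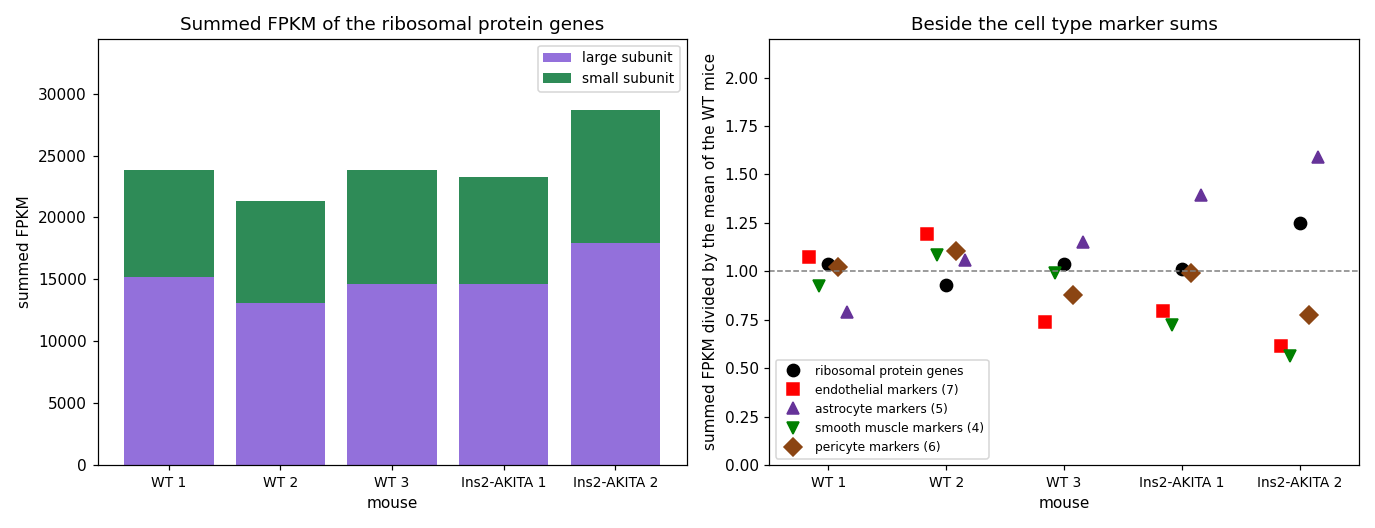
Left, summed FPKM of the large (purple) and small (green) subunit genes in each mouse. Right, the sum of the set and of 4 lists of cell type markers, each divided by the mean of the WT mice: in Ins2-AKITA replicate 2 the ribosomal protein genes stand at 1.25, the astrocyte markers at 1.59 and the endothelial markers at 0.615.

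The markers of several cell types also differed between the mice. The 5 astrocyte markers summed to 1381 to 2009 FPKM in WT mice and to 2434 and 2778 FPKM in Ins2-AKITA replicates 1 and 2. Of this, *Slc1a2* alone had 1013 to 1507 FPKM in WT against 1897 and 2110 FPKM in Ins2-AKITA mice. *Aldh1l1*, *Slc1a2* and *Slc1a3* did not overlap between the groups, while *Gfap* and *Aqp4* did. Both Ins2-AKITA mice lay below all WT mice for 4 of 4 smooth muscle and 2 of 7 endothelial markers. The same held for 1 of 6 pericyte, 1 of 5 microglia and 1 of 5 neuron markers. Of all genes tested, 9.24% lay above and 10.3% below in this way. By quantitative PCR the study found *Gfap* unchanged in the fragments. The 7 endothelial markers summed to 447 to 725 FPKM in WT against 483 and 374 FPKM in Ins2-AKITA mice. The 4 smooth muscle markers stood at 212 to 249 FPKM in WT against 166 and 129 FPKM in Ins2-AKITA mice, and the 6 pericyte markers at 186 to 235 and at 210.4 and 165 FPKM. The astrocyte sum was thus highest, and the endothelial, smooth muscle and pericyte sums lowest, in Ins2-AKITA replicate 2. The neuron, oligodendrocyte and microglia markers were at 1.10, 1.05 and 0.934 times the WT mean there, and the 3 erythroid markers at 0.481 times, 19.8 FPKM against 26.5 to 51.8 FPKM in WT. In WT mice the mean sum was 2104 FPKM for the oligodendrocyte and 636 FPKM for the neuron markers, beside 608 FPKM for the endothelial markers. Such sums do not give the share of a cell type. No marker of these lists was at 0 in every mouse. In Ins2-AKITA replicate 1 the astrocyte sum lay above and the smooth muscle sum below the WT range as well, while the ribosomal protein sum lay within it. The part of these markers in the result was not tested.

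With limma, 0 of the 77 genes passed an adjusted p of 0.05, and the smallest adjusted p was 0.896. Of all genes tested, 4 (0.0246%) passed. An unadjusted p under 0.05 was reached by 0 of the 77 ribosomal protein genes, against 726 (4.46%) of all genes. The standard error of a log2 fold change had a median of 0.22, and the 95% interval reached a median of 0.53 to either side. All 77 intervals held 0. A change of the size of the median, 0.14, was therefore not detectable for a single gene in these 5 mice. Apart from *Rps27l* and *Rps13*, whose intervals reached 2.27 and 1.18 to either side, all intervals stayed between -0.996 (*Rpl21*) and 1.17 (*Rpl15*) on the log2 scale.

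**Figure D4:**
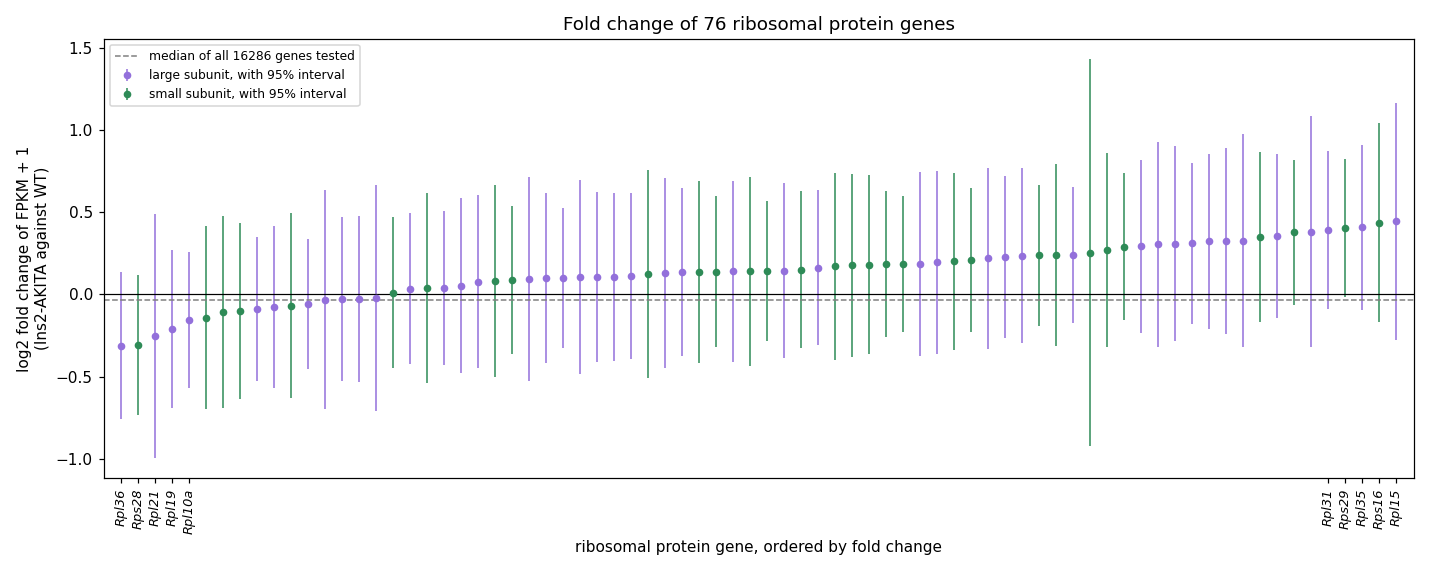
Log2 fold change of FPKM + 1 (Ins2-AKITA against WT) of the 76 standard ribosomal protein genes with its 95% interval from limma, ordered by size with the 5 genes at either end named, large subunit in purple and small subunit in green, the dashed line at the median of all 16286 genes tested. Every interval crosses 0, and 60 of the 76 points lie above it.

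Of 45 large subunit genes tested, 34 had a higher and 11 a lower mean in Ins2-AKITA mice, with a median log2 fold change of 0.13. Of 32 small subunit genes, 26 were higher and 6 lower, with a median of 0.16. The difference between the subunits was not tested.

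The 5 highest genes of the set were *Rpl26*, *Rpl13a*, *Rplp1*, *Rps23* and *Rps27*. *Rpl26* (ENSMUSG00000060938, chromosome 11 of NCBIM37, 68715085 to 68720491, plus strand), a large subunit protein also known to bind the p53 mRNA, had an FPKM of 1727, 1630 and 1824 in WT against 1923 and 2434 in Ins2-AKITA mice. Both Ins2-AKITA values lay above the WT range. The log2 fold change was 0.33 (standard error 0.27, 95% interval -0.32 to 0.98, limma p = 0.27 and exact permutation p = 0.1, the smallest that 3 mice against 2 allow). *Rpl13a*, which also takes part in translational silencing, had 1802, 1488 and 1616 FPKM in WT against 1967 and 2058 FPKM in Ins2-AKITA mice. Again the groups did not overlap (log2 fold change 0.30, standard error 0.26). *Rps23*, a protein of the decoding center of the small subunit, had 952, 945 and 1016 FPKM in WT against 1043 and 1257 FPKM in Ins2-AKITA mice (log2 fold change 0.24 ± 0.23, SE). These values depend on the scaling: with quantile normalization the log2 fold change was 0.73 for *Rpl26* and 0.62 for *Rpl13a*. *Rps27*, whose TOP tract is printed above, had 673, 675 and 760.3 FPKM in WT against 676 and 882 FPKM in Ins2-AKITA mice, so that only replicate 2 left the WT range.

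*Rplp0*, *Rplp1* and *Rplp2* form the stalk of the large subunit, which recruits the translation factors. *Rplp1* was at 1264, 942 and 1057 FPKM in WT against 1042 and 1273 FPKM in Ins2-AKITA mice. *Rplp0*, a frequent reference gene in quantitative PCR, was at 269, 186 and 218 FPKM in WT against 227 and 241 FPKM in Ins2-AKITA mice. Both genes overlapped between the groups, with log2 fold changes of 0.09 and 0.08. *Rplp2* was at 511, 537 and 587 FPKM in WT against 651 and 745 FPKM in Ins2-AKITA mice, with no overlap and a log2 fold change of 0.36 (standard error 0.21, limma p = 0.13, exact permutation p = 0.1). The difference between *Rplp2* and its partners was not tested.

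*Rpl5* and *Rpl11*, which carry the 5S ribosomal RNA into the large subunit and can bind the p53 regulator Mdm2, overlapped between the genotypes. *Rpl5* had 413, 324 and 326 FPKM in WT against 361 and 401 FPKM in Ins2-AKITA mice. *Rpl11* had 179, 139 and 161 FPKM in WT against 165 and 191 FPKM in Ins2-AKITA mice. Their log2 fold changes were 0.11 and 0.16, each smaller than its standard error of 0.21 and 0.20. *Rpl3*, next to the peptidyl transferase center, had 283, 301 and 323 FPKM in WT against 314 and 435 FPKM in Ins2-AKITA mice, and replicate 2 alone left the WT range.

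Some large subunit genes serve as tags or references in ribosome work. *Rpl22*, which carries the tag in RiboTag mice, had 257, 216 and 283 FPKM in WT against 243 and 316 FPKM in Ins2-AKITA mice. *Rpl10a*, the tagged protein of translating ribosome affinity purification, had 72.6, 82.2 and 81.5 FPKM in WT against 69.0 and 71.9 FPKM in Ins2-AKITA mice. Its Ins2-AKITA values lay just below all WT values (log2 fold change -0.16, standard error 0.17, limma p = 0.39, exact permutation p = 0.2). *Rpl19* had 370.4, 324 and 318 FPKM in WT against 263 and 322 FPKM in Ins2-AKITA mice (log2 fold change -0.21 ± 0.20, SE).

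The smallest limma p with a higher mean in Ins2-AKITA mice belonged to genes that included *Rps29*, *Rpl31*, *Rpl35* and *Rps16*. *Rps29* (ENSMUSG00000034892, chromosome 12, 70258709 to 70260173, minus strand), a zinc-binding protein of the small subunit head, had 220.4, 239 and 241 FPKM in WT against 313 and 306 FPKM in Ins2-AKITA mice. It was the gene in which the 2 Ins2-AKITA mice were most alike among these 4, and its log2 fold change was 0.40 (standard error 0.17, 95% interval -0.02 to 0.83, limma p = 0.058, adjusted p = 0.90, exact permutation p = 0.1). *Rpl35*, at the exit of the peptide tunnel, had 401, 328 and 406 FPKM in WT against 469 and 533 FPKM in Ins2-AKITA mice (log2 fold change 0.41 ± 0.21, SE). *Rpl31* had 108, 95.1 and 100.1 FPKM in WT against 115 and 153 FPKM in Ins2-AKITA mice, corresponding to an estimated 102, 102 and 232 and to 105 and 159 fragments. *Rps16* had 156, 99.8 and 154 FPKM in WT against 189 and 175 FPKM in Ins2-AKITA mice, the highest log2 fold change of the small subunit at 0.44 (standard error 0.25). In each of these 4 genes both Ins2-AKITA mice lay above all WT mice.

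In the other direction the smallest limma p belonged to *Rps28*, *Rpl36*, *Rpl19*, *Rpl10a* and *Rpl21*. *Rps28* (ENSMUSG00000067288, chromosome 17, 33955972 to 33961507, minus strand), a small subunit protein near the mRNA exit, had 173, 176 and 160.1 FPKM in WT against 127 and 147 FPKM in Ins2-AKITA mice. Its groups did not overlap (log2 fold change -0.31, standard error 0.18, 95% interval -0.74 to 0.11, limma p = 0.13, exact permutation p = 0.1). *Rpl36* (ENSMUSG00000057863, chromosome 17, 56752818 to 56753666, plus strand) had 314, 263 and 272 FPKM in WT against 234 and 221 FPKM in Ins2-AKITA mice, with no overlap (log2 fold change -0.31, standard error 0.19, limma p = 0.14, exact permutation p = 0.1). In both genes Ins2-AKITA replicate 2 was below the WT mice, unlike in most of the set. Under TPM these 5 log2 fold changes were also positive, between 1.38 and 1.499, beside the median of all genes of 1.07. *Rpl21* overlapped, with 158, 98.0 and 169 FPKM in WT against 95.4 and 139.7 FPKM in Ins2-AKITA mice (log2 fold change -0.25 ± 0.31, SE).

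Among small subunit genes with known additional roles, *Rps6*, the main ribosomal substrate of the S6 kinases downstream of mTOR, had 445, 354 and 395 FPKM in WT against 306 and 421 FPKM in Ins2-AKITA mice. Replicate 1 lay below the WT range and replicate 2 within it, and the log2 fold change was -0.14 (standard error 0.23). *Rps3*, at the mRNA entry, had 63.1, 50.4 and 60.6 FPKM in WT against 45.4 and 66.7 FPKM in Ins2-AKITA mice. *Rpsa*, also known as the laminin receptor, had 283, 248 and 291 FPKM in WT against 281 and 323 FPKM in Ins2-AKITA mice. *Rps27a*, which is made as a fusion with ubiquitin, had 207, 214 and 286 FPKM in WT against 240.3 and 329 FPKM in Ins2-AKITA mice. For *Rpsa* and *Rps27a* replicate 1 was within and replicate 2 above the WT range, and for *Rps3* they lay on opposite sides of it.

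*Rps19* and *Rps14* are mutated or lost in inherited or acquired anemias. *Rps19* had 134, 169 and 184 FPKM in WT against 143 and 202 FPKM in Ins2-AKITA mice. *Rps14* had 417, 385 and 418 FPKM in WT against 417 and 447 FPKM in Ins2-AKITA mice. *Rps18*, a common reference gene, had 231, 193 and 229 FPKM in WT against 195 and 294 FPKM in Ins2-AKITA mice. The log2 fold changes of *Rps19*, *Rps14* and *Rps18* were 0.08, 0.09 and 0.14, with standard errors of 0.24, 0.19 and 0.24.

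The genes lie on 19 chromosomes, with 14 of the 80 on chromosome 7 and 4 (*Rpl10*, *Rpl36a*, *Rpl39* and *Rps4x*) on the X chromosome. *Rpl10*, which joins the large subunit late in its assembly, had 208, 190 and 242 FPKM in WT against 215 and 290 FPKM in Ins2-AKITA mice. *Rps4x* had 243, 232 and 265 FPKM in WT against 263 and 298 FPKM in Ins2-AKITA mice. *Rpl39*, a short protein lining the peptide tunnel, had 70.9, 45.8 and 60.1 FPKM in WT against 64.2 and 81.0 FPKM in Ins2-AKITA mice. In each of the 3 genes replicate 1 was within the WT range and replicate 2 above it.

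*Rpl15* was the lowest standard gene, and the Ins2-AKITA mice lay far apart. It had 41.4, 38.2 and 43.8 FPKM in WT, 40.2 FPKM in Ins2-AKITA replicate 1 and 78.4 FPKM in replicate 2. The log2 fold change, 0.44 (standard error 0.30, 95% interval -0.28 to 1.17, exact permutation p = 0.3), was the highest of the large subunit and rested on replicate 2. Without that mouse it was -0.03.

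The copies whose symbol ends in l were at or near 0 where their standard partners were abundant. *Rpl10l* and *Rpl39l*, known from testis, were listed at 0 in all 5 mice. *Rpl3l*, known from striated muscle, was at 0.930 FPKM in WT replicate 2, 0.959 FPKM in Ins2-AKITA replicate 2 and 0 in the other mice, while *Rpl3* was at 283 to 435 FPKM. *Rps27l*, a target of p53, was listed at 0, 4.42 and 3.84 FPKM in WT against 0 and 2.30 FPKM in Ins2-AKITA mice. Reads of ribosomal protein genes can also match their copies and many processed pseudogenes. The counting rule for such reads is not given in the sources used here, so the split between near-identical sequences is uncertain.

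The other genes of translation gave no call at an adjusted p of 0.05 either. Outside the naming rule, *Fau* had 540.2, 397 and 498 FPKM in WT against 471 and 552 FPKM in Ins2-AKITA mice. Replicate 2 was the highest mouse, as for most genes of the set. Of the 6 genes in the list of ribosomal proteins outside the rule, 4 were higher and 2 lower in mean, with a median log2 fold change of 0.12 and 0 genes at an unadjusted p under 0.05.

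The list of elongation and release factors held 12 genes, including the kinase *Eef2k* and *Eef1e1*, which are not such factors themselves. Of the 12, 10 were higher and 2 lower in mean, *Eef2k* among the latter. The median log2 fold change was 0.29, with 0 at an unadjusted p under 0.05. *Eef1a1*, which brings aminoacyl-tRNA to the ribosome, had 781, 767 and 681 FPKM in WT against 839 and 984 FPKM in Ins2-AKITA mice. *Eef2*, which moves the ribosome along the mRNA, had 387, 399.7 and 441 FPKM in WT against 447 and 575 FPKM in Ins2-AKITA mice. In these genes both Ins2-AKITA mice lay above the WT mice (log2 fold changes 0.29 and 0.31, standard errors 0.22 and 0.21, exact permutation p = 0.1 for each). The 10 non-ribosomal TOP mRNAs tested had a median of 0.07, with 0 at an unadjusted p under 0.05; among them *Tpt1* had 548, 531 and 624 FPKM in WT against 579 and 686 FPKM in Ins2-AKITA mice.

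The list of initiation factors held 43 genes, including the kinases *Eif2ak1*, *Eif2ak2*, *Eif2ak3* and *Eif2ak4*. Of the 43, 2 with a higher and 1 with a lower mean had an unadjusted limma p under 0.05. The share over all genes tested, both directions together, was 4.46%. The median log2 fold change of the list was 0.08. *Eif2a* had 9.70, 10.4 and 7.85 FPKM in WT against 15.8 and 14.3 FPKM in Ins2-AKITA mice. *Eif2s3x*, a subunit of the factor that brings the initiator tRNA, had 30.9, 33.9 and 35.0 FPKM in WT against 45.0 and 45.4 FPKM in Ins2-AKITA mice. *Eif2ak2*, the kinase PKR that inhibits initiation, had 11.2, 12.6 and 11.1 FPKM in WT against 6.29 and 7.42 FPKM in Ins2-AKITA mice. In these genes the groups did not overlap and the 2 Ins2-AKITA mice were close to each other, with an adjusted limma p of 0.90 for each.

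The 51 genes of ribosome assembly and ribosomal RNA synthesis had a median of -0.07. An unadjusted p under 0.05 was reached by 1 with a higher and 2 with a lower mean, beside 4.46% of all genes tested. *Mrto4*, an assembly factor whose place on the large subunit is later taken by *Rplp0*, had 9.81, 6.08 and 8.12 FPKM in WT against 16.3 and 17.0 FPKM in Ins2-AKITA mice (log2 fold change 0.99 ± 0.27, SE). *Polr1b*, a subunit of RNA polymerase I, had 12.2, 6.66 and 4.60 FPKM in WT against 1.99 and 1.67 FPKM in Ins2-AKITA mice (log2 fold change -1.55 ± 0.44, SE). *Nop10*, a protein of the particles that modify ribosomal RNA, had 9.70, 6.85 and 6.76 FPKM in WT against 4.02 and 3.53 FPKM in Ins2-AKITA mice. The adjusted limma p of the 3 genes was 0.90. The 27 genes of mTOR and *Myc* control had a median of -0.13. Here 0 with a higher and 1 with a lower mean had an unadjusted p under 0.05, beside the same 4.46% of all genes. That gene was *Myc*, a transcription factor that drives ribosome production, with 2.43, 6.54 and 3.48 FPKM in WT against 0.576 and 0.506 FPKM in Ins2-AKITA mice (log2 fold change -1.66 with standard error 0.49, exact permutation p = 0.2). Its adjusted limma p was 0.90.

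Genes named for the mitochondrial ribosome, a separate ribosome, were picked by symbol alone, Mrpl or Mrps followed by a number. Their median log2 fold change was -0.12 over 76 genes tested, 35 of them higher and 41 lower in mean. At an unadjusted p under 0.05 there were 1 higher and 2 lower, beside 4.46% of all genes tested. *Mrpl34* had 6.13, 7.20 and 6.71 FPKM in WT against 19.0 and 14.9 FPKM in Ins2-AKITA mice, and *Mrpl38* had 12.8, 18.0 and 16.2 FPKM in WT against 3.77 and 6.11 FPKM in Ins2-AKITA mice. *Mrps36*, whose place in the list rests on its symbol, had 6.49, 15.2 and 8.14 FPKM in WT. It had 5.78 FPKM in Ins2-AKITA replicate 1 and was listed at 0 in replicate 2. *Mrpl34* and *Mrpl38* had log2 fold changes of 1.22 and -1.51 (standard errors 0.24 and 0.29), and neither passed the adjusted threshold (limma adjusted p = 0.76 and 0.72). The summed FPKM of the list was 1230 and 1458 in Ins2-AKITA mice and 1301 to 1390 in WT mice.

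**Figure D5:**
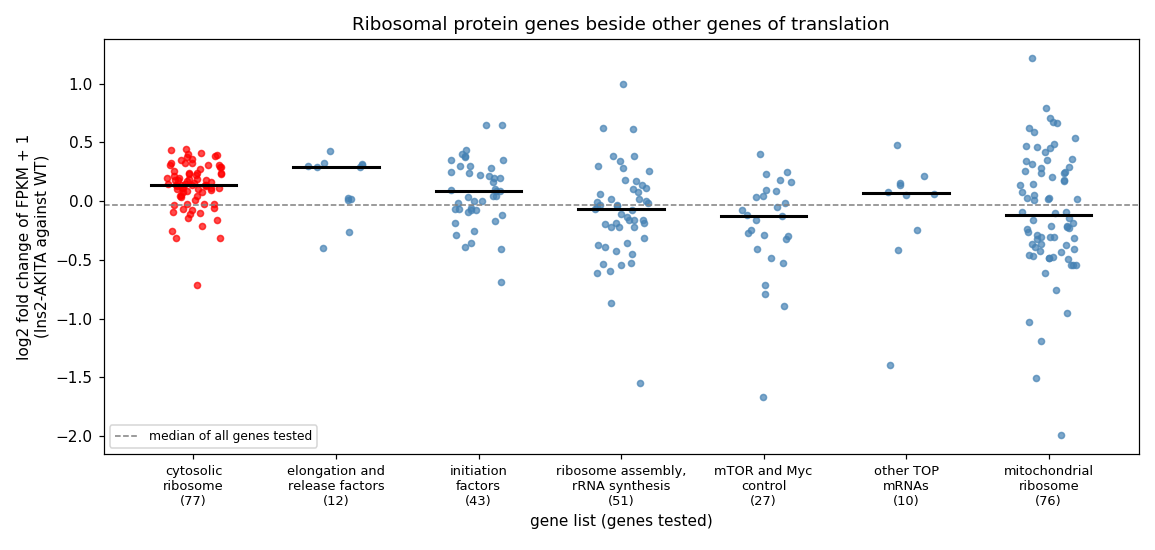
Log2 fold change of FPKM + 1 (Ins2-AKITA against WT) of each gene tested in 7 lists, with the median of each list as a black line and the median of all genes tested as a dashed line. The cytosolic ribosome (red) has a narrow spread around 0.14, the elongation and release factors a median of 0.29 and the mitochondrial ribosome a wide spread around -0.12.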

How the data were processed

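Per the labels and the study's methods, ribosomal and transfer RNA were depleted, stranded total RNA libraries were made, and reads were mapped to NCBIM37 with TopHat2 2.0.4; duplicated reads were removed with Picard 1.92. Removing duplicates can lower abundant short mRNAs. The authors deposited FPKM per Ensembl gene and mouse; Cufflinks 2.2.1 is named for their tests, and the program behind the values of single mice is not given in the sources used here.

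Identifiers were matched to GENCODE vM1 (37197 of 37982). Rows sharing a symbol were summed, and those averaging 1 FPKM or more over the mice (16286 symbols) entered a fit with limma 3.58.1 under R 4.3.3 (eBayes with trend) on log2(FPKM + 1), which understates changes of low genes. Genotype was the only factor, the test two-sided, with Benjamini-Hochberg adjustment at 0.05. Exact two-sided permutation tests of the difference of mean FPKM ran over all 10 splits of 5 mice. Python 3.11.15 did the rest. Fragments were estimated from the steps between low FPKM values of genes with 1 transcript (97.7% to 97.8% whole within 0.05).

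Genes were named by rule: the 5 highest and 5 lowest levels, the 5 smallest p in each direction, the extreme fold changes of each subunit, members of known role, and copies with their partners; of other lists, up to 2 genes in each direction by p. Single genes that the rule names are in part not reported here. *Eef1a1*, *Fau*, *Tpt1* and *Rps13* were named after their values were seen. The members and lists were chosen with earlier results of these data known. Replicates are separate mice. On simulated data for this comparison over 16286 genes, with 200 genes shifted by a log2 value of 2 in each of 10 simulations, the fit recovered 28.2% of them and 2.43% of its calls were unchanged genes. Alternatives covered the added value, filters, scalings, prior variance, the replicate block, and each mouse left out. Restricting the fit to protein-coding genes and adding no value before the logarithm were chosen after the data were seen. Labels number the mice in both genotypes without naming pairs.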

Additional observations from a re-analysis of the deposited data

How the results depend on the processing

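The count of ribosomal protein genes past an adjusted p of 0.05 was 0 under every alternative run. Their median log2 fold change (0.14) lay between 0.09 and 0.18 under the other added values, filters, scalings and fits, except with TPM, which gave 1.83. TPM divides by the FPKM sum of all genes, which was 1531575 to 13025905 over the mice, and moved the median of all genes to 1.07. TPM also turned the log2 fold changes of *Rpl10a* (1.47), *Rpl19* (1.499), *Rpl21* (1.41), *Rpl36* (1.39), *Rps27l* (0.16), *Rps28* (1.38), *Rps3* (1.52) and *Rps6* (1.57) to positive. With quantile normalization, under which the median of all genes was 0.03, the median was 0.10 with 57 of the 77 genes higher, and with the protein-coding sum 0.09 with 56 higher. Quantile normalization raised the log2 fold changes of *Rpl26* (0.73), *Rpl13a* (0.62), *Rplp1* (0.22) and *Rps27* (0.29) and lowered those of *Rpl22* (0.09), *Rplp0* (0.03), *Rps14* (0.03) and *Rps19* (0.02).

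With 1 mouse left out, the median ranged from -0.033 to 0.32. It was -0.033, with 34 of 77 genes higher, without Ins2-AKITA replicate 2, and 0.32, with 71 higher, without Ins2-AKITA replicate 1. In these fits the lone Ins2-AKITA mouse is assumed to vary like the WT mice. The log2 fold change turned sign without a mouse for *Rpl15* (-0.029 to 0.92), *Rpl21* (-0.53 to 0.018), *Rpl22* (-0.044 to 0.33), *Rplp0* (-0.049 to 0.22), *Rplp1* (-0.050 to 0.24), *Rps18* (-0.16 to 0.44), *Rps19* (-0.17 to 0.33), *Rps27* (-0.054 to 0.33), *Rps27l* (-1.57 to 0.15), *Rps3* (-0.34 to 0.20) and *Rps6* (-0.37 to 0.088). The cause of these changes beyond the mouse left out was not tested. Of the 33 named genes tested, 18 never turned sign. Limited to protein-coding genes, *Rpl35* and *Rps29* had an unadjusted limma p under 0.05, which is 2 of the 77 genes. The share over all genes of that fit is not given here, and in the main fit it was 4.46%.

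With the replicate number as a block, the median was 0.18, with 61 of 77 genes higher, 0 past the adjusted threshold and a smallest adjusted p of 0.60. WT replicate 3 then has no partner and adds nothing to the difference. The deviations of the 2 Ins2-AKITA mice are exact opposites, so the check (r = 0.051 and -0.034 over all genes for the same-numbered mice) cannot show a pairing, and the mice share only a number.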

Other observations

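Many ribosomal protein genes hold small nucleolar RNA genes, which guide the modification of ribosomal RNA, in their introns. Of the 58 small nucleolar RNA genes listed within 30 genes of the set, 43 were at 0 in all 5 mice, 10 were above 0 in some and 5 in every mouse. These 5 were *Snord15b* in *Rps3*, *SNORA73* in *Rpsa*, *Snora7a* in *Rpl32*, *SNORA72* in *Rpl30* and *Snora21* in *Rpl23*. *Snord15b* had 3642, 3535 and 2109 FPKM in WT against 3177 and 2524 FPKM in Ins2-AKITA mice, while its host *Rps3* had 45.4 to 66.7 FPKM. *Snora21* had 7875, 9468 and 3199 FPKM in WT against 8115 and 2729 FPKM in Ins2-AKITA mice, with *Rpl23* at 115 to 148 FPKM. Their length, 65 to 203 nucleotides, is below the length taken off before division, so these FPKM values cannot be set against those of the hosts.

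The 107 pseudogene rows named after ribosomal protein genes summed to 246, 278 and 249 FPKM in WT against 305 and 355 FPKM in Ins2-AKITA mice, which is 1.03% to 1.31% of the sum of the set, and 64 to 77 of them were at 0 in each mouse.

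Taken as shares of the FPKM sum of the 76 standard genes in a mouse, *Rpl36* made up 1.32%, 1.23% and 1.14% in WT against 1.00% and 0.769% in Ins2-AKITA mice, and *Rps28* 0.724%, 0.824% and 0.672% in WT against 0.544% and 0.511% in Ins2-AKITA mice. *Rpl26* made up 7.25%, 7.64% and 7.65% in WT against 8.25% and 8.48% in Ins2-AKITA mice. *Rpl36*, *Rps28* and *Rpl26* were picked after their values were seen, and no test was run on these shares.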
